A study of Homo sapiens with 14 samples.

Results

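KMT2D peaks were examined at 10 genes of the Fanconi anemia (FA)/BRCA pathway in 1 ChIP-seq library of the HNSCC cell line SCC23, a human line derived from a squamous cell carcinoma of the head and neck. The genes were FANCA, FANCC, FANCL and FANCF of the FA core complex, FANCD2 and FANCI of the ID complex, and BRCA1, BRCA2, PALB2 and BRIP1. A peak was assigned to a gene when its summit lay within 50 kb of the gene. This rule took 6 of the 13808 peaks in the deposited list (exact 95% Poisson interval of the count 2.2 to 13.1), and all coordinates are GRCh37 (hg19). The cells were wild type for KMT2D (KMT2D-WT) and were deprived of glucose for 6 h, a condition that the sample's own label gives as low glucose, and the antibody was directed against KMT2D. The study used this library to find where KMT2D sits in the genome and whether FA genes are among its targets. Of the 14 samples in the labels, the other 13 (an input, and histone H3 and its modifications in KMT2D-WT and KMT2D-KO cells) were not analysed here. With 1 library there were no replicates, so no difference was tested across samples and all intervals cover counting error only.

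The FA pathway repairs DNA interstrand crosslinks, which covalently join both strands and block replication forks. The core complex is a ubiquitin ligase, with FANCL as its catalytic subunit, that places a single ubiquitin on FANCD2 and FANCI. The modified ID complex then clamps onto DNA and directs the cutting of the crosslink, and BRCA1, PALB2, BRCA2 and the helicase BRIP1 (FANCJ) act in the homologous recombination that restores the broken strand. KMT2D methylates lysine 4 of histone H3 mainly at enhancers, and also binds at some promoters.

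Most of the KMT2D peaks listed at these genes were weak and lay outside the gene. Of the 10 loci, 4 (FANCA, FANCD2, FANCI and PALB2) held a peak, and no peak was listed in the windows of FANCC, FANCL, FANCF, BRCA1, BRCA2 or BRIP1. For comparison, 29.5% of 16206 tiles of chromosomes 1 to 22 and X held a peak at the median window width of 180.5 kb. With tiles of each gene's window width on its own chromosome, the share ran from 19.6% (BRCA2) to 64.6% (BRIP1). Whether 4 of 10 loci differ from these shares was not tested. A single gene, FANCI, had a peak at its start, and no other summit lay inside any of the 10 genes. The share of all gene starts with a peak was not counted, because no matching gene annotation was at hand. Whether 1 of 10 starts is few or many was therefore not tested. For summits inside the genes, the density ratio to the rest of chromosomes 1 to 22 and X was 0.242. Its interval of 0.00612 to 1.35 contains 1, so a difference beyond counting error was not shown. The ID complex genes had 3 peaks in 0.349 Mb of window, the core complex genes 2 peaks in 0.784 Mb and the BRCA genes 1 peak in 0.789 Mb. The average densities of their chromosomes amount to 1.49, 3.88 and 6.26 peaks in those windows. The exact Poisson intervals of the counts are 0.619 to 8.77, 0.242 to 7.22 and 0.0253 to 5.57. Those of the ID and core complex genes contain the average, and that of the BRCA genes lies below it. These intervals are too narrow because peaks gather in groups, so a shortage at the BRCA genes was not shown.

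**Figure D1:**
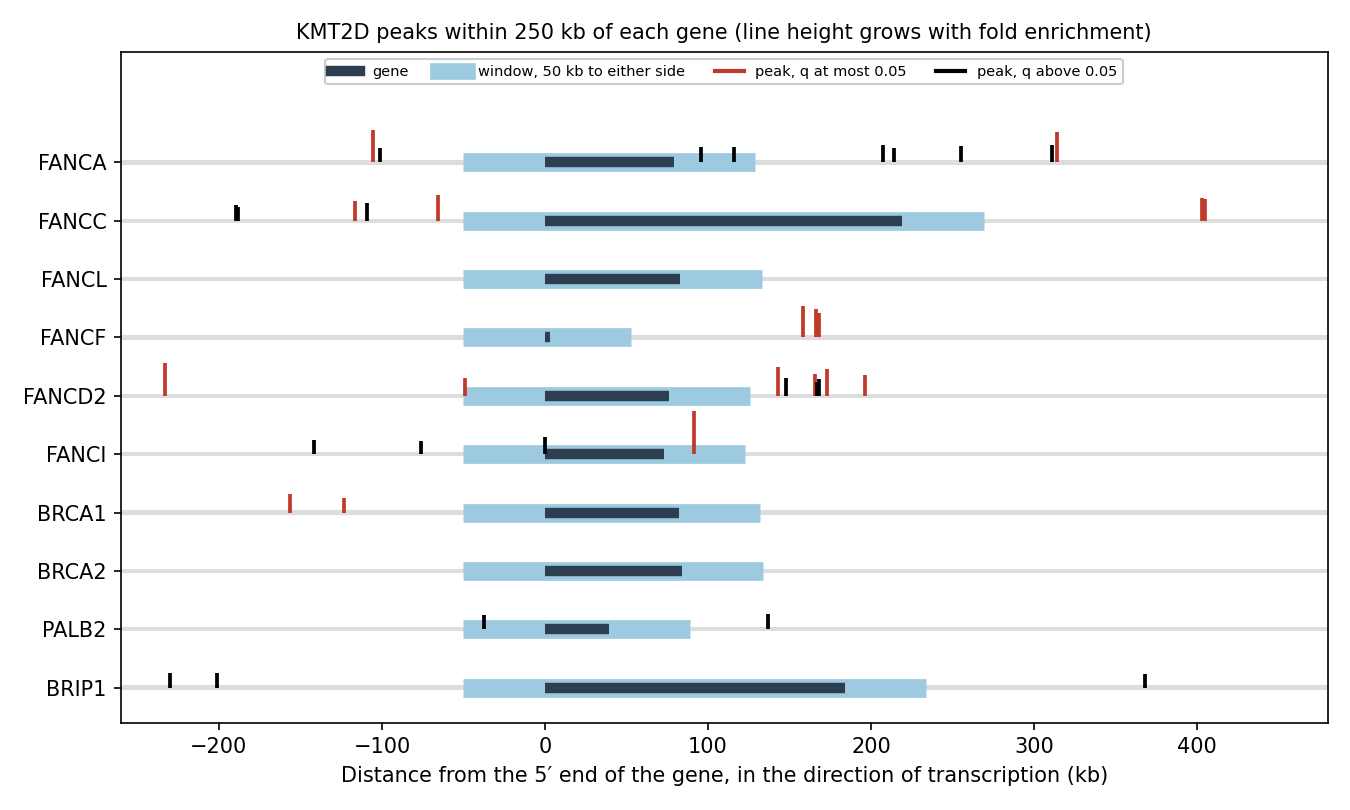
Each row is 1 gene drawn from its 5′ end in the direction of transcription (x axis, kb), with the gene in dark blue, the window of 50 kb to either side in light blue and each KMT2D peak within 250 kb as a vertical line whose height grows with fold enrichment (red, q at most 0.05; black, q above 0.05). The 6 windows of FANCC, FANCL, FANCF, BRCA1, BRCA2 and BRIP1 are empty, and the tallest line in the plot lies past the 3′ end of FANCI.

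The start regions of 3 of these genes are shown because FANCD2 is the partner of FANCI, whose start carried the only peak, and BRCA1 and BRCA2 give the pathway its name, while none of the 3 had a peak within 1000 bp of its start. The sequences are the 250 bases before the transcription start in RefSeq (GRCh38.p14), read 5′ to 3′ on the strand of the gene, which is plus for FANCD2 and BRCA2 and minus for BRCA1. Of the 10 genes, 9 matched an entry in this table, and FANCI did not. BRCA1 and FANCC had 2 entries each, and the sequence and values of 1 entry are given for each gene. Capitals mark matches on either strand to the GC box GGGCGG, the box named CCAAT after its letters, the ETS motif CCGGAA, the E2F motif written as TTGGCGC and also as TTCCCGC, the AP-1 motif TGANTCA and the E-box CACGTG. Matches may overlap.
FANCD2: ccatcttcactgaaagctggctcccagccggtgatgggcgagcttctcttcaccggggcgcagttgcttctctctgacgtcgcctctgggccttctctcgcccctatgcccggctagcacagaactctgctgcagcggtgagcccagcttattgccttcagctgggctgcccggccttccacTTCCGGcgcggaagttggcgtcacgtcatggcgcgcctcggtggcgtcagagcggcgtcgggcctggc
BRCA1: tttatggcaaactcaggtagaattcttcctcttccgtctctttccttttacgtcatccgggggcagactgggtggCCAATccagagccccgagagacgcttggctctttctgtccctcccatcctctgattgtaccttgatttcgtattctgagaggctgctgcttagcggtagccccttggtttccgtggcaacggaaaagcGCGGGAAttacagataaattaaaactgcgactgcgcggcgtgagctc
BRCA2: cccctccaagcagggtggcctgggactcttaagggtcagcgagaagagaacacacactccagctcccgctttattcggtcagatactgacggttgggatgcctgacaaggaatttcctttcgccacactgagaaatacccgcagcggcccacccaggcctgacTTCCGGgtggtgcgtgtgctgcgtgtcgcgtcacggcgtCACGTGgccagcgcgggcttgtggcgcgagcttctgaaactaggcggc

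The FANCD2 stretch held 1 ETS match, whose first base lay 68 bases before the start, and the BRCA2 stretch held 1 ETS match 87 bases and 1 E-box match 48 bases before it. In the BRCA1 stretch a CCAAT box lay 175 bases and an E2F match 47 bases before the start. Across the 9 matched genes, 4 had a GC box, 5 a CCAAT box, 4 an ETS match, 3 an E2F match, 1 an E-box and 0 an AP-1 match. The shares among all 35116 entries of the table were 42.6%, 32.0%, 14.5%, 7.81%, 6.34% and 6.57% in the same order. The 9 regions had 14 to 33 CpG dinucleotides and a GC content of 49.2 to 72.0%, against medians of 11 and 58.0% over all entries. The CpG number was lower in 55.2% of all entries than in FANCF and in 91.9% than in FANCC. The GC content of FANCF, BRCA1 and BRIP1 lay below the median. FANCC and FANCA had the most CpG, 33 and 31, and FANCF the least, 14. All 9 start regions lay above the median CpG number of the table. None of these 9 genes had a KMT2D peak at its start, and FANCI, the only gene with one, had no entry. Start regions with and without a peak could therefore not be compared. These matches are letters in a window and no sites of binding were measured.

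FANCI, the partner with which FANCD2 is ubiquitinated, had the peak of highest fold enrichment in the 10 windows. The gene lies on the plus strand at chr15:89787000-89860000, a span given to the nearest kb, and its window held 2 peaks. The first, at chr15:89786960-89787173, covered the gene start with its summit 72 bp from it, although the start itself is known only to about 1 kb. It was a weak peak. It was 214 bp wide with 17 ChIP fragments over the summit (95% Poisson interval 9.90 to 27.2), where the genome-wide background gives 2.88. Its fold enrichment, the ratio of scaled ChIP to local background at the summit, was 3.56 (2.28 to 5.42 from the same interval). The fold enrichment was lower than this in 38.3% of all peaks, and its q-value, the p-value at the summit adjusted for all positions tested, was 0.217. The start of FANCI carried more fragments than the background, as every listed peak does, but the peak did not reach a q-value of 0.05 in a list that was made with a p-value threshold.

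The second FANCI peak, at chr15:89877646-89878494, lay 18.2 kb past the 3′ end of the gene, on the side where POLG, the catalytic subunit of the mitochondrial DNA polymerase, follows in gene order. It was 849 bp wide with 62 fragments (47.5 to 79.5) and a fold enrichment of 11.7 (9.11 to 14.9). It ranked 305 of all 13808 peaks by fold enrichment, and its q-value was 2.76e-19. The intervals of the fragment numbers of both FANCI peaks did not overlap, so that the distal peak was the stronger by more than counting error. Whether it lies at the start of POLG was not analysed here, since no annotation of GRCh37 was at hand.

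FANCD2, the other subunit of the ID complex, had no peak in the gene or at its start. Its window around chr3:10068000-10144000 held 1 peak, at chr3:10018727-10018910, whose summit lay 49.2 kb upstream of the start, on the side of EMC3. This peak had 24 fragments (15.4 to 35.7) where its local background, 1.51 times that of the genome, gives 4.34, a fold enrichment of 3.82 (2.59 to 5.50) and a q-value of 0.0196. It lay just inside the limit of 50 kb. The nearest peaks just outside the limit were 1 at 65.9 kb from FANCC, with a fold enrichment of 6.11, and 1 at 67.0 kb from FANCD2, with 7.20. The latter opened a group of peaks downstream of FANCD2: 6 summits lay between 67.0 and 96.9 kb past its 3′ end, on the side of FANCD2OS, with fold enrichments from 2.49 to 7.20.

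Among the core complex genes, peaks were found at FANCA alone, the gene most often mutated in FA. Both FANCA peaks, at chr16:89766684-89766965 and chr16:89787160-89787730, lay past the 3′ end of the gene (chr16:89804000-89883000, minus strand), by 37.1 and 16.7 kb. Each had 13 fragments (6.92 to 22.2), a fold enrichment of 2.84 (1.73 to 4.51) and a q-value of 1. The neighbouring gene on that side is ZNF276 by gene order. Whether either peak lies at the start of ZNF276 was not analysed here, since no annotation of GRCh37 was at hand. The start of FANCA lay 95.7 kb from the nearest summit.

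FANCC, FANCL and FANCF had no peak in their windows. FANCC, at chr9:97861000-98080000, has the widest window of the 10, at 319 kb, in which the chromosome average amounts to 1.45 peaks. Its nearest peak lay 65.9 kb upstream, on the side of PTCH1, the receptor of hedgehog ligands, and had 31 fragments, a fold enrichment of 6.11 and a q-value of 1.16e-05. FANCL, at chr2:58386000-58469000, lay 378.5 kb from the nearest summit. FANCF, an adaptor protein of the core complex encoded in a gene of about 3 kb at chr11:22644000-22647000, lay 155.5 kb from its nearest summit. That summit was on the downstream side and had a fold enrichment of 8.03. The other summits within 250 kb of FANCF lay 163.3 and 165.3 kb from it, and all 3 peaks had a q-value below 0.05.

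Of the BRCA genes, PALB2, which bridges BRCA1 and BRCA2, was the only one with a peak in its window. The peak at chr16:23690066-23690262 lay 37.1 kb upstream of the start of PALB2 (chr16:23614000-23653000, minus strand), on the side of DCTN5. With 12 fragments (6.20 to 21.0), a fold enrichment of 2.66 (1.60 to 4.28) and a q-value of 1, it was the weakest of the 6.

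BRCA1, a ubiquitin ligase that promotes homologous recombination, and BRIP1 lie on chromosome 17, which held 10.8 peaks per Mb, and both windows were empty. In the 182 kb around BRCA1 (chr17:41196000-41278000) the chromosome average amounts to 1.97 peaks, and 55.1% of 445 tiles of that width on chromosome 17 held a peak. In the 284 kb around BRIP1 (chr17:59757000-59941000) it amounts to 3.07 peaks, and 64.6% of 285 tiles held one. A count of 0 allows up to 3.69 peaks by its 95% Poisson interval, which covers each average on its own. The limit is the same for a count of 0 over both windows, and the sum of both averages exceeds it. Such an interval is too narrow because peaks gather in groups. Of the tiles on chromosome 17, 44.9% at the BRCA1 width and 35.4% at the BRIP1 width held no peak. Whether 0 peaks over both windows is fewer than usual for this chromosome was not tested. The peak nearest to BRCA1 lay 123.0 kb upstream. It had 76 fragments where its local background gives 25.1, and its fold enrichment was 2.84. The peak nearest to BRIP1, 184.0 kb downstream, had 11 fragments and a fold enrichment of 2.48. BRCA2, a mediator of homologous recombination, lies at chr13:32890000-32974000 on chromosome 13, which held 2.42 peaks per Mb. Only 19.6% of 520 tiles of its window width on chromosome 13 held a peak, and the nearest summit lay 430.1 kb downstream.

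**Figure D2:**
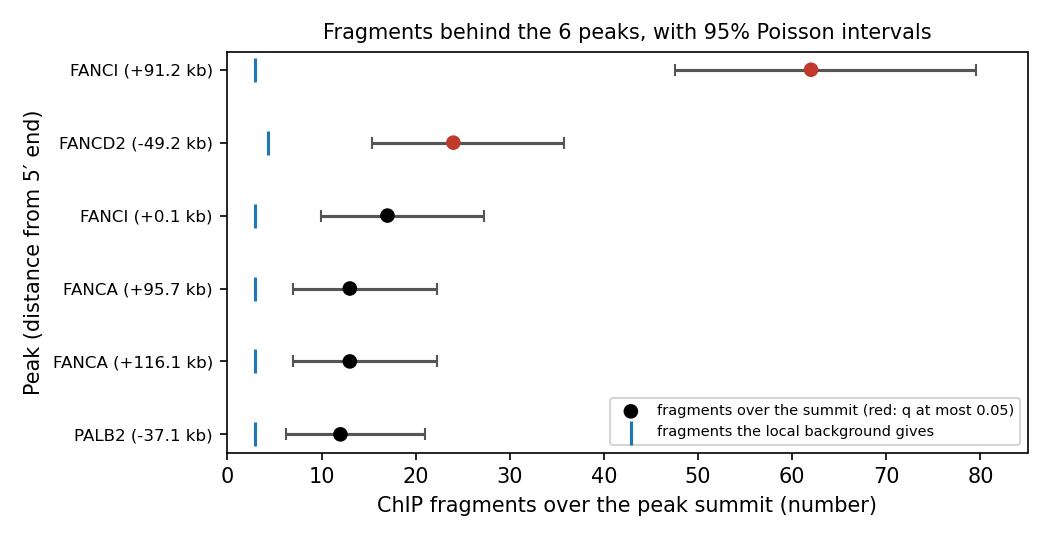
Number of ChIP fragments over the summit (x axis) of each of the 6 peaks, named by gene and by distance from its 5′ end, as dots with exact 95% Poisson intervals, beside the fragments that the local background gives (blue ticks). The distal FANCI peak has 62 fragments and the other 5 have 12 to 24. Each interval lies above its background, which follows from the listing of peaks by a p-value against that background.

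The 6 peaks were mostly weak for this list. Their fragment numbers were 12, 13, 13, 17, 24 and 62, against a median of 25 over all peaks. Their fold enrichments had a median of 3.20 and a range of 2.66 to 11.7, against a median of 3.93 (interquartile range 3.14 to 5.39) over all peaks. Of the 6, 5 lay below that median and the distal FANCI peak above it. Of the 6 peaks, 2 had a q-value of 0.05 or less, which is 33.3% (95% Wilson interval 9.68 to 70.0%), beside 58.5% of all peaks. This interval contains the share of all peaks. A q-value of 1 was listed for 3 of the 6 peaks and for 14.2% of all peaks. The local background was at the genome-wide level under 5 of the 6 peaks and under 41.4% of all peaks, and it was raised under the FANCD2 peak.

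**Figure D3:**
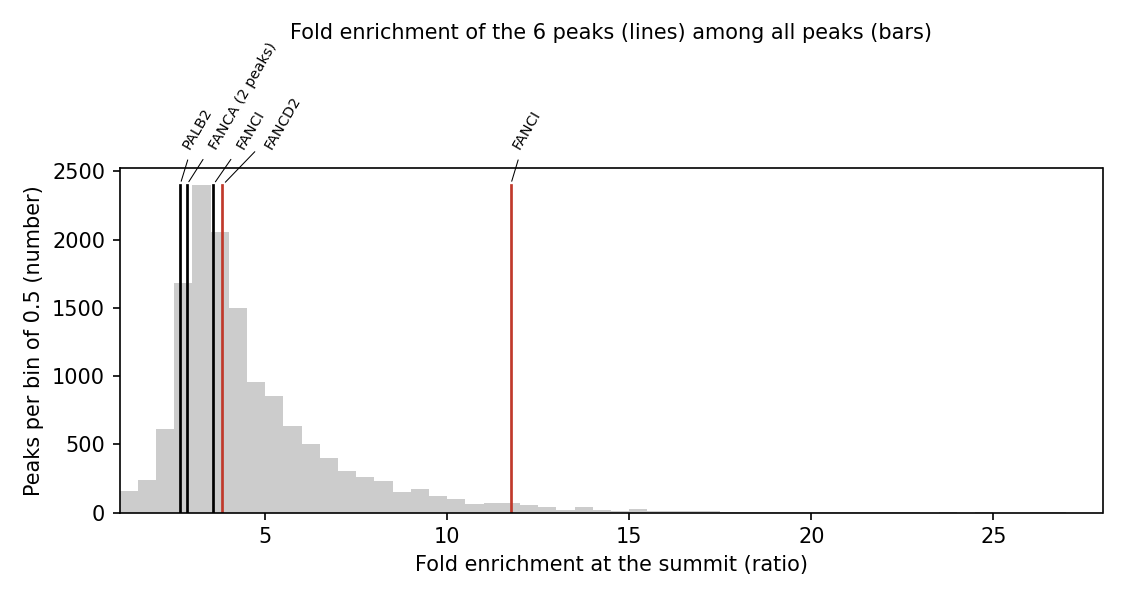
Fold enrichment at the summit (x axis, ratio) of all 13808 peaks as bars (y axis, peaks per bin) with the 6 peaks as lines (red, q at most 0.05; black, q above 0.05). The lines for PALB2, FANCA, FANCI at its start and FANCD2 fall between 2.66 and 3.82, and only the distal FANCI peak, at 11.7, stands to the right of the bulk of the bars.

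The depth sets what an empty window can mean. At the genome-wide background the peaks with the least signal had 11 fragments and a fold enrichment of 2.47, so that weaker binding was not detectable in this list where the background is at that level. The local background at the starts without a peak was not analysed here.

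Over the 10 windows together, the density was 3.12 peaks per Mb in 1.92 Mb, against 4.49 per Mb in the rest of chromosomes 1 to 22 and X. The ratio was 0.695 with a 95% interval of 0.255 to 1.51, which contains 1, so that a difference beyond counting error was not shown. The direction depended on the window: within 100 kb of the genes the ratio was 1.14 (0.640 to 1.89), although the averages of their own chromosomes give 17.5 peaks for the 15 found there. Against the rest of their own 8 chromosomes the ratio was 0.627 (0.230 to 1.37). Peaks gather in groups, so these intervals are too narrow.

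Peaks were also counted farther out, at distances of which those beyond 100 kb were chosen after the windows had been counted. Between 50 and 100 kb from the genes there were 9 peaks, 6 of them at FANCD2, where the chromosome averages give 5.86 (ratio 1.54, 0.703 to 2.92). Between 100 and 250 kb there were 24 peaks, against 17.6 (ratio 1.37, 0.875 to 2.03), and between 250 and 500 kb 25 peaks, against 29.3 (ratio 0.854, 0.552 to 1.26). The ratio within 50 kb was 0.516 (0.189 to 1.12). All 4 intervals contain 1 and overlap each other, and the difference between distances was not tested. Within 250 kb of the genes, 18 of 39 peaks had a q-value of 0.05 or less, beside the 58.5% of all peaks. By locus these were 2 of 9 peaks at FANCA, 4 of 7 at FANCC, 3 of 3 at FANCF, 6 of 9 at FANCD2, 1 of 4 at FANCI, 2 of 2 at BRCA1, 0 of 2 at PALB2 and 0 of 3 at BRIP1. FANCL and BRCA2 had no peak within 250 kb, and within 500 kb they had 3 peaks and 1 peak.

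**Figure D4:**
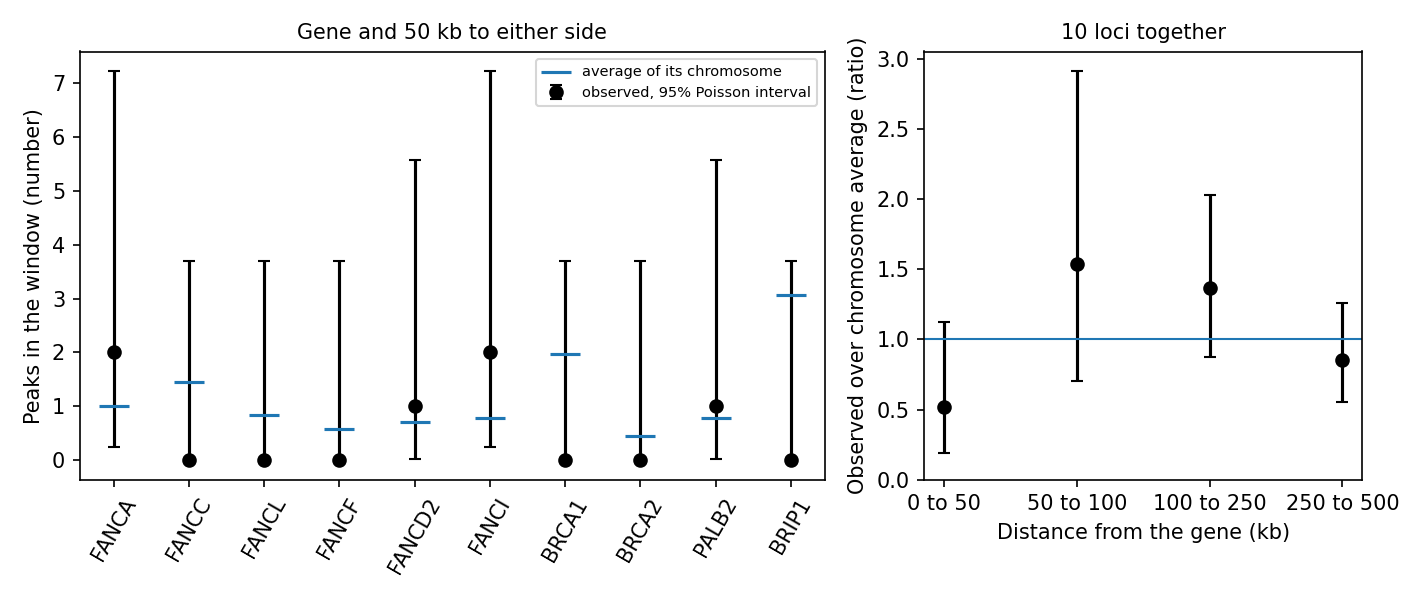
Left, number of KMT2D peaks in each gene window (dots, exact 95% Poisson intervals) beside the number that the average density of its chromosome gives (blue ticks); right, peaks of all 10 loci by distance from the gene (x axis, kb) as a ratio to the chromosome averages, with 95% Poisson intervals and a line at 1. Counts are 0 to 2 per window, all 10 intervals on the left contain the chromosome average, and the ratio runs from 0.516 within 50 kb to 1.54 at 50 to 100 kb.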

How the data were processed

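KMT2D was profiled by ChIP-seq in KMT2D-WT SCC23 cells kept without glucose. The authors aligned the reads to hg19 (GRCh37) using Bowtie2, retained those mapping to 1 place and ran MACS2 with a cutoff on the p-value, of which the largest listed was 0.00984. The deposited fold enrichment is a ratio of scaled ChIP pileup to local background, each with a pseudocount. The deposited −log10 p and −log10 q columns and the deposited score (the whole part of 10 times −log10 p in all 13808 lines) are the authors' own. The control for peak calling is not named in the sources used here.

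Gene spans were those of the rule that defines the loci, given to 1 kb. Strands came from GENCODE v44 and gene order from RefSeq, both on GRCh38, whose coordinates were not joined to any peak, so other FA genes, for which no GRCh37 position was at hand, were not analysed here. All 10 genes and every peak in their windows were named, with the neighbouring gene on the side of a peak. A peak at a start overlapped 1000 bp to either side of the 5′ end. Fragments over each summit were rebuilt from fold enrichment and p-value with the Poisson formula of MACS2 (scale 0.381, background 1.10), with a largest gap of 0.000587 in −log10 p. On 3 simulated lists of 6000 peaks each, at least 96.65% of peaks gave back their exact fragment number. Total depth was not analysed here, and the fragments per summit give the precision of each value. Intervals were exact Poisson, conditional exact for ratios, and Wilson for shares, all at the 95% level. Chromosome averages used the span from first to last summit. The genes and lists were chosen with earlier results of these data known. Alternatives were other windows, q-value thresholds, start definitions and a filter on local background. The software was scipy 1.17.1 and numpy 2.4.6 under Python 3.11.15, with pandas 2.3.3 for tables and matplotlib 3.10.9 for plots.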

Additional observations from a re-analysis of the deposited data

How the results depend on the processing

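Alternatives gave 42 values, of which 25 kept to the main value within the spread or the 1.5 times allowed for counts, and 17 moved. For the median fold enrichment the spread was the range of the 6 peaks, 2.66 to 11.7. The median of any part of these peaks must fall within that range, so keeping to it says nothing about stability. The density ratios of 1.47 and 1.31 given below also counted as kept, since they lay within the main interval of 0.255 to 1.51. The number of peaks was 6 as reported, 3 within 25 kb, 15 within 100 kb and 1 inside the genes. At a q-value of at most 0.05 it was 2 and at 0.01 it was 1. Loci with a peak numbered 4, and 2 within 25 kb, 1 inside the genes, 2 with the q-value threshold of 0.05 and 1 with that of 0.01. Genes with a peak at the start numbered 1, and 0 at either q-value threshold, since the FANCI start peak had a q-value of 0.217. The start flanks of 2500 and 5000 bp added no gene. With windows of 250 and 500 kb, chosen after seeing the data, there were 39 and 64 peaks at 8 and 10 loci. The density ratio was 0.695, and 0.242 both inside the genes and with the q-value threshold of 0.01. Each of the latter ratios rests on 1 peak, and the 95% interval of each, 0.00612 to 1.35, contains 1. The density ratio exceeded 1 with windows of 100 kb (1.14), 250 kb (1.47, 95% interval 1.04 to 2.01) and 500 kb (1.31, 1.01 to 1.67), all against the rest of chromosomes 1 to 22 and X. The averages of the genes' own chromosomes give 17.5, 35.0 and 64.3 peaks for the 15, 39 and 64 found, so the direction depends on both the window and the comparison. The median fold enrichment was 3.20, and 7.78 for the 2 peaks with a q-value of at most 0.05. The filter on local background removed no peak of these windows. With 1 library and 12 to 62 fragments per peak, the list cannot show which peaks would recur. No paired analysis was possible because 1 library was analysed.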
